A study of Ictidomys tridecemlineatus with 15 samples.

Results

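The growth hormone and insulin-like growth factor (IGF) axis and the first steps of insulin signalling were followed through 10 genes in the liver of the 13-lined ground squirrel, a hibernating rodent. The genes were Igf1, Igfbp1, Igfbp2, Igfbp4, Igfals, Ghr, Insr, Irs1, Irs2 and Socs2, and each was looked up by its symbol among the gene names of the count table. Of the 10 genes, 8 had a unit among the 6324 units of the table, where a unit is a gene body or several overlapping gene bodies counted together. Igf1, Igfbp1, Igfbp4, Insr and Irs2 had a unit of their own, whereas Ghr, Igfals and Irs1 were counted in merged units. Igfbp2, which encodes a binding protein, and Socs2, which encodes an inhibitor of growth hormone receptor signalling, matched no unit and were not analysed here. All 8 units held 10 or more counts in every library.

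Growth hormone acts on the liver through its receptor, the product of Ghr, which signals through the kinase JAK2 and the transcription factor STAT5 and raises transcription of Igf1 and Igfals. The IGF1 that the liver secretes circulates with binding proteins, and the product of Igfals, the acid-labile subunit, stabilizes the larger of these complexes. Insulin acts through its receptor, the product of Insr, whose docking proteins IRS1 and IRS2 pass the signal on, and in hepatocytes insulin represses Igfbp1 and the gluconeogenic genes.

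Global run-on sequencing (GRO-seq) lets RNA polymerases that were transcribing when the nuclei were isolated extend their transcripts, so the values below are transcription in progress and not amounts of messenger RNA or protein. Liver was taken from female squirrels in 5 states, each library from 1 animal. Summer active (SA) animals were collected in the homeothermic period that precedes hibernation. Interbout aroused (IBA) animals were warm between bouts of torpor in winter, animals in entrance (Ent) were cooling into torpor, and early torpor (ET) and late torpor (LT) animals were cold. Each state had 3 libraries except LT, which had 2, numbered 1 and 3. The remaining LT sample of the labels was not used here. All animals were housed in the laboratory, and the winter states were told apart by body temperature and time. Winter animals had no food, so that winter and fasting cannot be told apart. The ages of the animals were not given in the sources used here.

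Between 3713883 and 8884763 reads were counted per library. Values are CPM, counts scaled to a common library size with edgeR's trimmed mean of M values (TMM), that is shares of the counted reads, and a change common to most units would not show in them. Of the marker genes of hepatocytes, 9 of 15 had a unit of their own, and their summed level lay between 11132 and 22584 CPM in SA, 9564 and 14130 in IBA, 7927 and 8596 in Ent, 4082 and 8401 in ET, and 5153 and 7701 in LT. The 4 endothelial markers with their own unit (of 11) summed to between 211 and 266 CPM in SA, 228 and 259 in IBA, 223 and 264 in Ent, 140 and 220 in ET, and 141 and 158 in LT. No lymphocyte marker of 8 and no macrophage marker of 12 had a unit of its own. Fewer cells of a type and less transcription per cell cannot be told apart in whole liver, and the part of these marker levels in the results below was not tested. The animals came from 3 consecutive seasons. All ET animals were from the middle one, both LT animals from the earliest and all IBA animals from the latest, and SA and Ent mixed the earliest and the latest. ET thus shared no season with any other state, and LT shared none with IBA. Season and state therefore cannot be told apart in the comparisons of ET with IBA, Ent or LT. LT and IBA could be linked only through SA and Ent, which mixed their seasons.

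Positions are those of the ground squirrel genome HiC_Itri_2, strand after each. The unit of Igf1 spanned chromosome 4 from 18699708 to 18777034 (+, 77.3 kb). That of Igfbp1 lay on chromosome 2 from 101282987 to 101291208 (+, 8.22 kb) and was the shortest of the 8. Insr spanned 213382044 to 213491000 on the same chromosome (+, 109 kb). Irs2 lay on chromosome 4 from 193154120 to 193179712 (-, 25.6 kb), and Igfbp4 on chromosome 7 from 21568083 to 21592156 (-, 24.1 kb). Among the merged units, Ghr shared its unit with the unnamed genes G3235 and G3236 on chromosome 1 from 230886511 to 231138777 (+, 252 kb). Irs1 was counted with G32485 on chromosome 6 from 181811941 to 181875404 (-, 63.5 kb). Igfals was 1 of 7 names, with Nme3, Mrps34, Spsb3, G39790, Hagh and HS3ST6_like, on chromosome 9 from 104482353 to 104609151 (-, 127 kb). Reads of Ghr, Irs1 and Igfals therefore could not be separated from those of their partners, which matters most for Igfals.

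Compared per kb of unit, Igfbp1 had the highest mean level of the 8 in every state. Its level was 151 CPM per kb in SA, 265 in IBA and 80.3 in Ent, and 10.4 and 9.05 in ET and LT. The ET mean rested on ET 3, at 19.5. In ET 1 Igfbp1, at 7.25, was below Irs2 at 10.4 and Igfbp4 at 8.62. In ET 2 it was at 4.32, below the Ghr unit at 5.21, and in LT 3 at 6.59, below Irs2 at 7.19. The second place was held by Igfbp4 in SA, IBA and Ent, with 16.5, 14.9 and 11.3 CPM per kb, and by Irs2 in ET and LT, with 6.65 and 8.16. The ET libraries of Irs2 spread widely. In ET 2 it was at 3.02, below Igfbp1 and the Ghr unit there and below its SA mean. Irs2, at 3.83 CPM per kb in SA, was then below Insr and the Ghr unit, which stood at 6.27 and 8.29 CPM per kb. The SA mean of Igf1, 5.18 CPM per kb, rested on SA 2, at 13.1, whereas in SA 1 and SA 3 Igf1 was at 1.03 and 1.42, below Irs2 at 3.71 and 3.49. In LT the mean of Igf1 was the lowest of the 8, at 1.34 CPM per kb, while the Igfals unit lay between 2.19 and 2.66 CPM per kb in all 5 states. Irs2 thus stood higher in the order of the means in the cold states than in SA, with no test of that order.

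**Figure D1:**
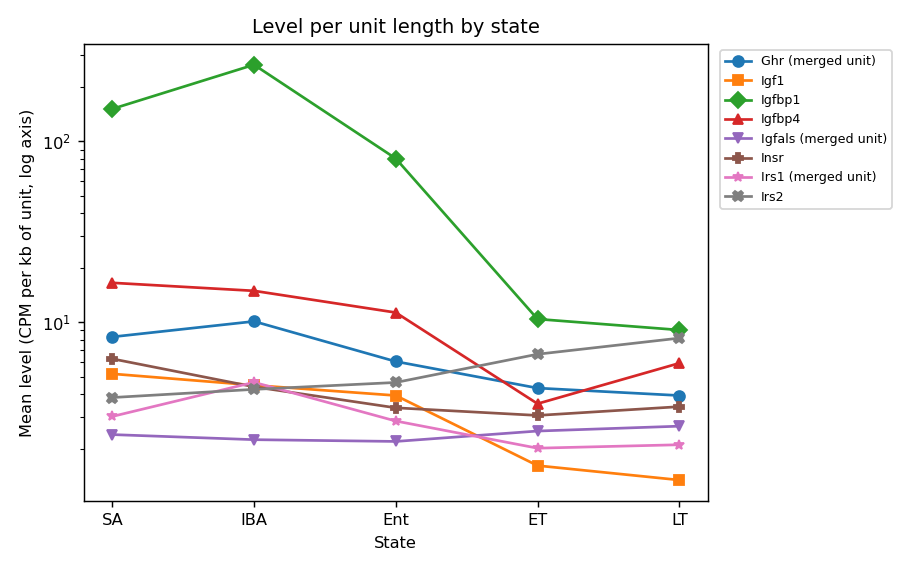
Mean GRO-seq level of each unit in CPM per kb of unit length (log axis) in the 5 states. The mean of Igfbp1 is highest in every state, at 265 CPM per kb in IBA and 9.05 in LT, though not in every single ET and LT library. The Irs2 line crosses those of Igfbp4, Insr and Ghr between SA and LT. The SA mean of Igf1, above that of Irs2, rests on SA 2, at 13.1 CPM per kb.

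The question of the design was which genes change their transcription through the cycle of torpor and arousal and between summer and winter. Across the 5 states together, 2 of the 8 members, Ghr and Igfbp1, passed a threshold of 0.001 on the Benjamini-Hochberg adjusted p of edgeR's quasi-likelihood test, against 25.5% of all units. At 0.05, 4 members passed, Insr and the Irs1 unit being added, against 62.0% of all units. DESeq2 called 3 members at 0.001, Insr with the 2 above, against 50.0% of all units. By these shares the members were called no more often than units at large, and their directions were uneven. From IBA to the mean of ET and LT, 2 members fell at 0.001 and none rose, where 28.3% of all units were called, 14.2% lower and 14.1% higher, and DESeq2 called 3 members, the Irs1 unit added, and 41.5% of units. In the same comparison 6 members passed 0.05, 5 of them lower, against 59.5% of all units called and 30.3% called lower. The libraries of 6 members did not overlap between IBA and the cold states, all lower in the cold, where 58.3% of all units did not overlap and 29.7% were lower. The median log2 fold change over the members was -1.24, beside -0.04 over all units. Over the 13 units of hepatocyte markers, 4 of them merged, it was -1.55.

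**Figure D2:**
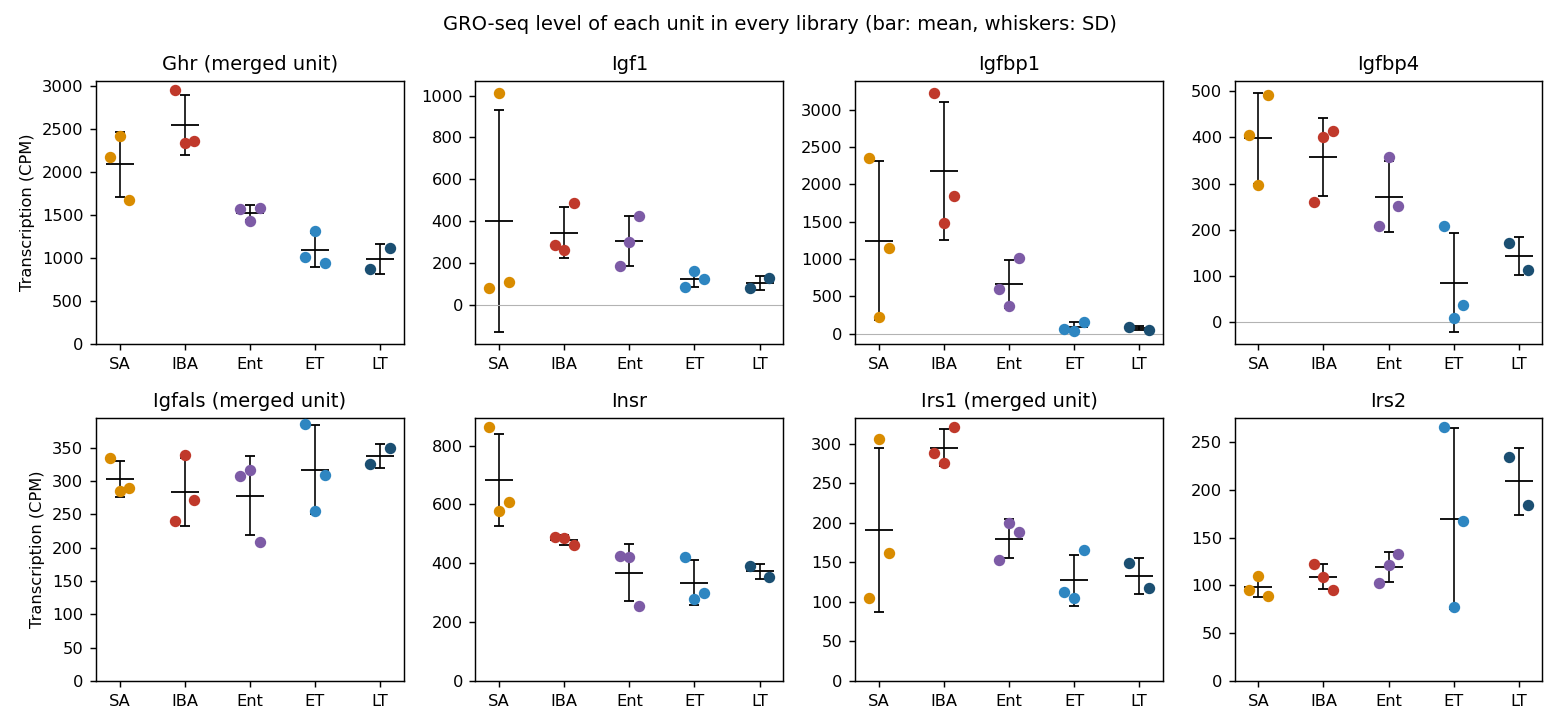
CPM of each of the 8 units in every library (points), with the state mean (bar) and SD (whiskers), in SA, IBA, Ent, ET and LT (n = 3, and 2 in LT). All 3 IBA libraries lie above all 5 ET and LT libraries for Ghr, Igf1, Igfbp1, Igfbp4, Insr and Irs1, and the single high SA library of Igf1 stands at 1012 CPM.

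Ghr, the gene of the growth hormone receptor, fell in the cold and rose on arousal. In SA its unit was at 2173, 2422 and 1680 CPM, in IBA at 2951, 2333 and 2366, in Ent at 1570, 1433 and 1584, in ET at 1008, 1315 and 948, and in LT at 870 and 1115. The IBA libraries lay above all Ent libraries, and the Ent libraries above all ET and LT libraries, while SA and IBA overlapped. From IBA to the mean of ET and LT the unit fell 2.45-fold, by 1.29 on the log2 scale (SE 0.17, edgeR adjusted p = 4.0e-05). This call held under every alternative run, with log2 fold changes between -1.39 and -1.06. Season as a covariate was not among those alternatives. From LT to IBA Ghr rose by 1.36 (SE 0.22, edgeR adjusted p = 3.7e-04), the only member called there, where 17.4% of all units were called and 7.73% called higher. DESeq2 called 2 members in that comparison, Igfbp1 and Ghr, and 31.9% of units. That return was above 0.001 when any 1 IBA or LT library was left out (edgeR adjusted p up to 0.0095). It was also above 0.001 with season as a covariate (1.36, adjusted p = 0.0056) and with uniquely mapped reads as library size (1.17, 0.0012). The compared groups only (1.32, 0.0013) and the replicate block (1.32, 0.0013) lost that call too. Across the 5 states Ghr had an edgeR adjusted p of 3.4e-04, and without IBA 1, IBA 3, ET 1, ET 3 or LT 1 it lay between 0.0011 and 0.0014. Uniquely mapped reads as library size (0.0021) and the replicate block (0.0012) lost the call across the states as well.

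The step from arousal into entrance gave few calls. From IBA to Ent no member passed 0.001, where 0.0316% of units did, 3 members had an unadjusted p under 0.05, as did 32.5% of units, and DESeq2 called 1, Ghr, and 7.07% of units. The Ghr unit had a log2 fold change of -0.74 (SE 0.19, edgeR adjusted p = 0.022), the only member to pass 0.05, where 16.1% of all units did. Without IBA 1, Ent 2 or Ent 3 it missed 0.05, with log2 fold changes of -0.62, -0.69 and -0.76 (edgeR adjusted p between 0.057 and 0.093). It also missed 0.05 with season as a covariate (-0.74, edgeR adjusted p = 0.076) and with uniquely mapped reads as library size (-0.59, 0.056). The libraries of Ghr, Igfbp1, Insr and Irs1 did not overlap between IBA and Ent, each lower in Ent, where 43.4% of all units did not overlap and 20.9% were lower. Ghr was also lower in the mean of the 4 winter states than in SA. The log2 difference was -0.55 (SE 0.15, edgeR adjusted p = 0.010), which passed 0.05 and not 0.001. Without SA 2 that value was -0.43 (edgeR adjusted p = 0.056), and with uniquely mapped reads as library size -0.39 (0.058). The winter mean averages IBA with the lower Ent, ET and LT levels. In the warm winter state alone Ghr was not lower, with an IBA mean of 2550 CPM beside 2092 for SA (log2 difference 0.29, edgeR adjusted p = 0.420).

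Igf1 encodes the growth factor itself, the main output of growth hormone in the liver. Its SA libraries had 79.3, 1012 and 110 CPM, its IBA libraries 287, 264 and 488, its Ent libraries 186, 299 and 426, its ET libraries 85.7, 163 and 125, and its LT libraries 80.0 and 128. A single summer library, SA 2, was the highest of the 14, and the other SA libraries were at the level of the torpor libraries. The IBA and Ent libraries overlapped each other, and both groups lay above every ET and LT library. The log2 fold change of Igf1 between IBA and the cold states was -1.61 (SE 0.65, edgeR adjusted p = 0.049), which passed 0.05 and not 0.001. The call at 0.05 was lost without any 1 IBA, Ent, ET or LT library, with log2 fold changes between -1.80 and -1.28 and adjusted p between 0.055 and 0.167. It was also lost in DESeq2 (0.051), just lost in limma-voom (0.050 when rounded), and lost with relative log expression size factors (0.051), total counts (0.068) and uniquely mapped reads (0.084) as the scaling. Without SA 2, which had entered the estimate of the spread, the fold change was the same and the edgeR adjusted p was 7.3e-04, and with the compared groups only it was 9.4e-04.

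The comparison of Igf1 with summer depended on that library. The highest SA value was 12.8 times the lowest, and 0.221% of all units had an SA ratio as wide. From SA to the mean of the 4 winter states the log2 fold change was -1.06 (SE 0.55, edgeR adjusted p = 0.140), and without SA 2 it was 1.02 (adjusted p = 0.038), the opposite direction. From SA to IBA it was -0.20 (SE 0.73, edgeR adjusted p = 0.903), and without SA 2 it was 1.87 (adjusted p = 0.020). With SA 1 left out in its place the winter difference was -1.54 (edgeR adjusted p = 0.032). The direction of Igf1 between summer and winter was thus not fixed by these 3 SA animals.

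Igfbp1, which encodes the binding protein that the liver makes in fasting, had the widest span. Its levels were 2354, 226 and 1150 CPM in SA, 3222, 1477 and 1837 in IBA, 600, 371 and 1009 in Ent, 59.6, 35.5 and 160 in ET, and 94.6 and 54.2 in LT. Every library of IBA lay above every library of Ent, and every library of Ent above every library of ET and LT. From IBA to the mean of ET and LT Igfbp1 fell 27.3-fold, by 4.77 on the log2 scale (SE 0.69, edgeR adjusted p = 9.0e-05). Leaving out LT 1 or LT 3 gave edgeR adjusted p of 0.0012 and 0.0016, with log2 fold changes of -5.00 and -4.60. The other alternatives run kept the call, and season as a covariate was not among them. Across the states the edgeR adjusted p was 8.0e-04, and it was above 0.001, at up to 0.0035, without SA 3, any IBA library, any Ent library, ET 1, ET 2, LT 1 or LT 3.

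The steps of Igfbp1 through the cycle were less certain one by one. From Ent to ET no member passed 0.001, where 2.21% of units did, 3 members had an unadjusted p under 0.05, as did 40.5% of units, and DESeq2 called 1, Igfbp1, and 14.8% of units. Its log2 fold change from Ent to ET was -2.95 (SE 0.76, edgeR adjusted p = 0.013), which made it the only member past 0.05, where 28.8% of units were. Igf1, Igfbp1, Igfbp4 and Ghr had no overlap between Ent and ET, all lower in ET, where 43.2% of all units did not overlap and 20.7% were lower. From LT to IBA Igfbp1 had a log2 fold change of 4.87 (SE 0.99, edgeR adjusted p = 0.0015), past 0.05 and not 0.001. From SA to the winter mean, which averages high IBA and low torpor levels, it was -2.01 (SE 0.51, edgeR adjusted p = 0.0074), and -1.16 (adjusted p = 0.118) without SA 1. limma-voom gave -1.53 (adjusted p = 0.059).

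Reads of a gene can run on past its end into the next unit of the strand, so the nearest upstream unit of each member was looked up. Igfbp1 alone had one within 20 kb, Adcy1, an adenylyl cyclase gene whose unit ended 17.2 kb away. The mean level of Adcy1 was 84.9 CPM in SA, 134 in IBA and 42.0 in Ent, and 7.02 and 8.42 in ET and LT. It fell by 4.11 on the log2 scale from IBA to the mean of ET and LT (SE 0.28, edgeR adjusted p = 8.4e-07), so both units were low in the cold. Per kb, Adcy1 stood at 0.803 CPM in IBA and 0.0421 in ET, far below Igfbp1 in the same libraries. Whether reads of Adcy1 ran on into the Igfbp1 unit was not tested.

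Igfbp4, which encodes another secreted binding protein, was at 405, 297 and 493 CPM in SA, 260, 401 and 413 in IBA, 209, 357 and 251 in Ent, 208, 9.62 and 38.1 in ET, and 172 and 114 in LT. The ET libraries had the widest ratio of highest to lowest value of any group of any member, 21.6, a ratio that 0.0316% of all units reached in ET. All cold libraries lay below all IBA libraries. The log2 fold change from IBA to the mean of ET and LT was -1.70 (SE 0.62, edgeR adjusted p = 0.031), past 0.05 and not 0.001. It was -2.61 (edgeR adjusted p = 1.4e-04) without ET 1. Without IBA 2, IBA 3, ET 3, LT 1 or LT 3 it missed 0.05, with log2 fold changes between -1.86 and -1.52 and adjusted p of 0.057 or more, as it did with the compared groups only (-1.66, 0.065). ET 1 was the library with the highest Igfbp4 and also the highest Irs2 of its group.

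The unit that holds Igfals, the gene of the acid-labile subunit, was the flattest of the 8. It was at 334, 285 and 290 CPM in SA, 240, 339 and 272 in IBA, 308, 317 and 209 in Ent, 386, 255 and 309 in ET, and 325 and 350 in LT. States next to each other in the order of the means all overlapped, and that order could not be read beyond the spread. The log2 fold change from IBA to the mean of ET and LT was 0.21 (SE 0.17, edgeR adjusted p = 0.330), and 0.43 (adjusted p = 0.038) with uniquely mapped reads as library size. Since 6 other genes were counted in this unit, these values do not give the transcription of Igfals alone.

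**Figure D3:**
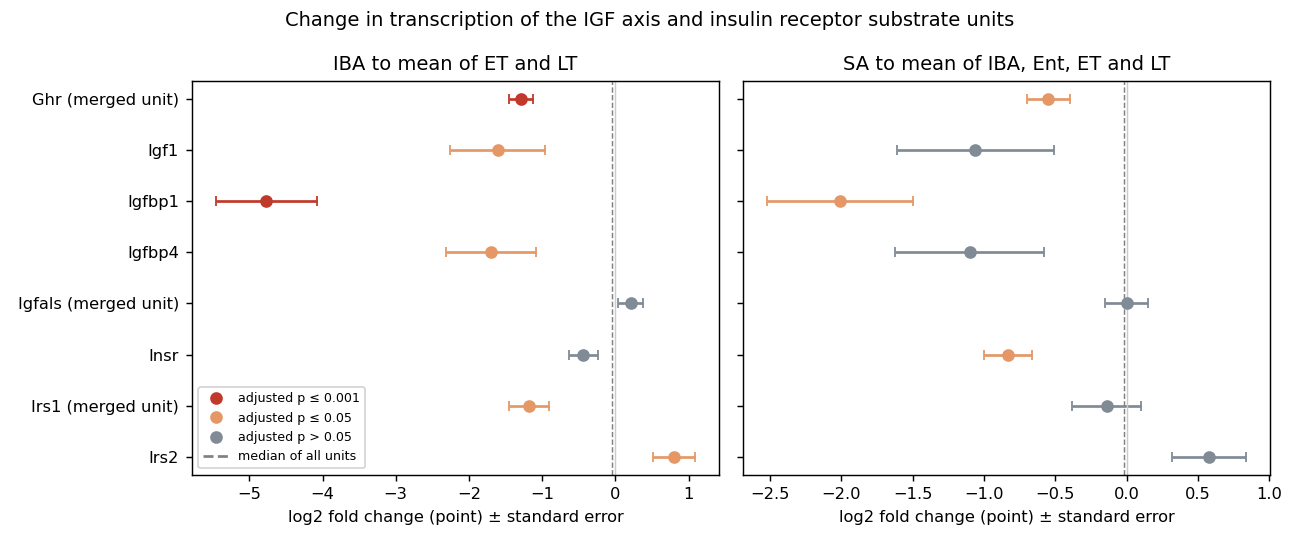
Log2 fold change of the 8 units (points, with SE as whiskers) from IBA to the mean of ET and LT and from SA to the mean of the 4 winter states. The dashed line is the median of all units (-0.04 and -0.02), and Irs2 is the member farthest to the right in both panels, at 0.80 and 0.58.

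On the insulin side, Insr encodes the receptor. Its unit was at 864, 578 and 609 CPM in SA, 489, 486 and 461 in IBA, 423, 422 and 255 in Ent, 421, 279 and 299 in ET, and 391 and 353 in LT. Every SA library lay above every winter library, and IBA above Ent, ET and LT, whereas those 3 states overlapped. From SA to the mean of the 4 winter states the log2 fold change was -0.83 (SE 0.17, edgeR adjusted p = 0.0020), past 0.05 and not 0.001. Left-out SA libraries gave values between -0.94 and -0.63, with edgeR adjusted p from 0.0027 to 0.019. DESeq2 called the same difference, -0.83 with an adjusted p of 7.4e-05. Insr was the 1 member of 8 whose SA libraries did not overlap those of winter, where 7.10% of all units did not overlap and 3.92% were lower in winter. For IBA against the mean of ET and LT it was -0.44 (SE 0.20, edgeR adjusted p = 0.069).

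Over winter as a whole, no member passed 0.001 against SA, where 11.0% of units did. Those past 0.05 were Igfbp1, Ghr and Insr, 3 members, all lower in the winter mean, where 44.3% of units passed and 23.5% were lower. Of these, Igfbp1 and Ghr were not lower in IBA, with means of 2179 CPM against 1244 in SA and 2550 against 2092. The mean of Insr was lower in IBA too, at 479 CPM against 683. There were 4 members at an unadjusted p under 0.05, where 51.7% of units were, and DESeq2 called 2 members, Ghr and Insr, and 25.2% of units. The median log2 fold change over the members was -0.69, beside -0.02 over all units and -0.81 over the units of hepatocyte markers. From SA to IBA, both warm states, no member passed 0.05 or 0.001 in edgeR and DESeq2 called 0 members and 3.50% of units, where edgeR called 0.0158% of units at 0.001 and 5.22% at 0.05, and 1 member, Insr, had an unadjusted p under 0.05, as did 22.0% of units. Its libraries alone among the members did not overlap, where 27.9% of all units did not. Its log2 difference from SA to IBA was -0.51 (SE 0.22, edgeR adjusted p = 0.193).

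Irs1 and Irs2, the genes of the receptor's docking proteins, differed in the sign of their fold changes in torpor. The Irs1 unit was at 105, 306 and 162 CPM in SA, 288, 275 and 321 in IBA, 153, 200 and 188 in Ent, 112, 105 and 165 in ET, and 149 and 117 in LT. IBA stood above every other winter library without overlap, and the SA libraries spread over both ranges. Its log2 fold change from IBA to the cold states was -1.18 (SE 0.27, edgeR adjusted p = 0.0025), past 0.05 and not 0.001. Without SA 1 or SA 2 the edgeR adjusted p was 5.0e-04 and 1.7e-04, with the compared groups only it was 4.1e-04, and DESeq2 gave 1.8e-04. Without LT 3 the edgeR adjusted p was 0.013. Across the 5 states the Irs1 unit (edgeR adjusted p = 0.024) missed 0.05 with total counts (0.051) or uniquely mapped reads (0.071) as the scaling. That call was also lost without ET 1, ET 2 or any 1 IBA library, with edgeR adjusted p up to 0.080. From LT to IBA the log2 fold change of the Irs1 unit was 1.15 (SE 0.35, edgeR adjusted p = 0.017), and 0.53 (adjusted p = 0.377) with season as a covariate. Without LT 1 or LT 3 it was 1.33 (edgeR adjusted p = 0.053) or 0.98 (0.121).

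Irs2 was the only member with a higher mean in the cold past 0.05. Its libraries were at 95.0, 110 and 89.2 CPM in SA, 122, 109 and 95.3 in IBA, 102, 121 and 133 in Ent, 266, 77.2 and 167 in ET, and 234 and 184 in LT. The LT libraries lay above all libraries of SA, IBA and Ent, while ET 2 was the lowest of the 14 and ET 1 the highest. The log2 fold change from IBA to the mean of ET and LT was 0.80 (SE 0.29, edgeR adjusted p = 0.032), past 0.05 and not 0.001. It was 0.97 (edgeR adjusted p = 7.2e-04) without ET 2. Without ET 1 it was 0.56 and just missed 0.05 (edgeR adjusted p = 0.050 when rounded). Without LT 1 or any 1 IBA library it also missed 0.05, with log2 fold changes between 0.71 and 0.89 and adjusted p between 0.052 and 0.108, as it did in limma-voom (0.72, 0.054) and with the compared groups only (0.83, 0.055). From LT to IBA Irs2 was lower, at -0.94 (SE 0.35, edgeR adjusted p = 0.039), without overlap, and missed 0.05 without any 1 IBA or LT library (-1.11 to -0.76, adjusted p between 0.057 and 0.205) and with season as a covariate (-1.11, 0.104). The change of the Irs1 unit and that of Irs2 were each tested against no change, and the difference between them was not tested.

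Within the earliest season, Ent 1 and Ent 2 could be set beside LT 1 and LT 3. The Ghr unit was at 1570 and 1433 CPM in those Ent libraries and at 870 and 1115 in LT, Igfbp1 at 600 and 371 against 94.6 and 54.2, and Igf1 at 186 and 299 against 80.0 and 128. Irs2 was at 102 and 121 against 234 and 184. Igfbp4 was at 209 and 357 against 172 and 114, and the Irs1 unit at 153 and 200 against 149 and 117. The Igfals unit was at 308 and 317 against 325 and 350. The orders of these units were those of their means over all libraries. Insr was at 423 and 422 against 391 and 353, whereas its mean over all libraries was 367 CPM in Ent and 372 in LT. Each comparison had 2 animals a side and no test. Within the latest season, SA 2 and SA 3 could be set beside IBA, and no member passed 0.05 there. With season as a covariate, Igfbp1 kept a log2 fold change of 5.23 (edgeR adjusted p = 0.0059) from LT to IBA, and Insr, at 0.36 (0.242) without it, passed 0.05 (0.0067). For Igf1 it went from 1.74 (edgeR adjusted p = 0.116) to -0.06 (0.972). The season term was set by SA and Ent, the states that mixed seasons. SA 2, at 1012 CPM of Igf1, was among those libraries, and its part in that shift was not tested.

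Between early and late torpor, whose animals came from different seasons, no difference was detectable. From ET to LT no member passed 0.001 or 0.05 in edgeR, the lowest adjusted p being 0.912, none had an unadjusted p under 0.05 where 8.70% of units did, DESeq2 called 0 members and 0.585% of units, and no member's libraries were without overlap, where 24.0% of all units did not overlap. Over all units 0.00% were called at 0.001 and 0.269% at 0.05. From LT to IBA 4 members passed 0.05, where 49.8% of units did, and 7 of 8 did not overlap, where 74.4% of units did not, so that most of the table separated these groups too.

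The summer libraries differed among themselves in several of these genes at once. SA 2, with the highest Igf1 and Irs1 of the SA group, had the lowest Igfbp1, at 226 CPM against 2354 and 1150. Genes that insulin represses or that act in its pathway were read beside them. G6pc, the gene of glucose-6-phosphatase, was at 371 CPM in SA 2, against 2041 in SA 1 and 1317 in SA 3, and Pck1, the gene of phosphoenolpyruvate carboxykinase, was at 584 against 1124 and 1414. Foxo1, which encodes a forkhead transcription factor of the insulin pathway, was highest in SA 2, at 989 CPM against 512 and 342. Foxo3, another forkhead factor gene, did not set SA 2 apart, at 1660 CPM against 1838 and 1540. Stat5b, a STAT5 gene of growth hormone signalling, was lowest in SA 2, at 67.7 CPM against 112 and 102, although Igf1 was highest there. The highest SA level of Igfbp1 was 10.4 times the lowest, which 0.348% of all units matched. These are single animals of 1 state, chosen here for their spread, and no test was made. Foxo1 was named after its values were seen. Over all 14 libraries, Pearson's r of log2 CPM was 0.81 for Igf1 with the Irs1 unit, 0.31 for Igf1 with Igfbp1, 0.79 for Igfbp1 with the Ghr unit and -0.67 for the Ghr unit with Irs2. These correlations share the states and library sizes and are given as a description.

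**Figure D4:**
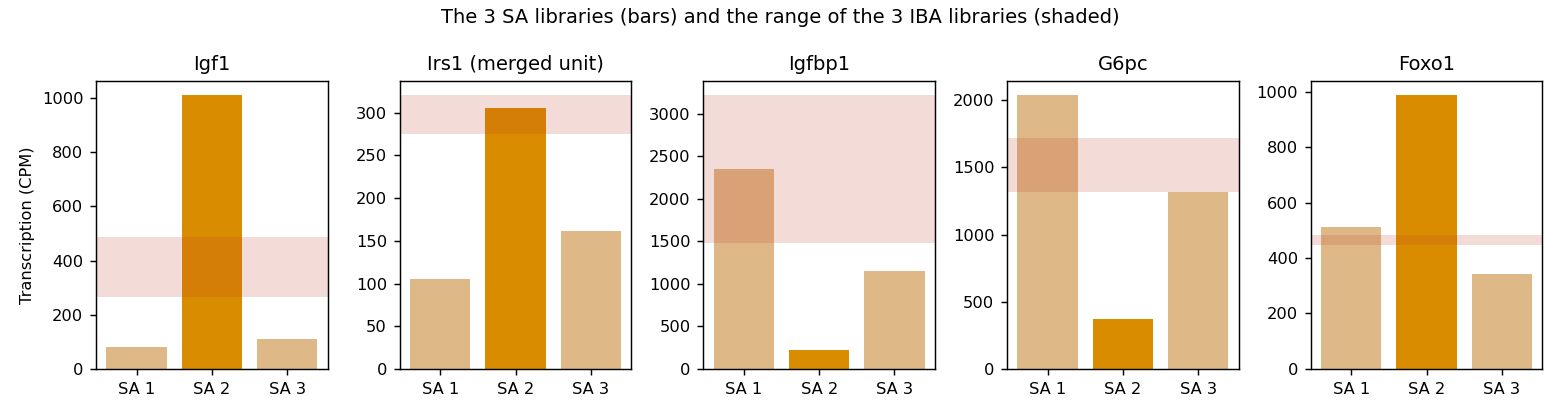
CPM of Igf1, the Irs1 unit, Igfbp1, G6pc and Foxo1 in the 3 SA libraries (bars), with the range of the 3 IBA libraries shaded. SA 2 is the highest of the 3 for Igf1 (1012 CPM), Irs1 and Foxo1 and the lowest for Igfbp1 (226 CPM) and G6pc.

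Other genes of the same pathways were read from lists. Of 16 further IGF ligands, binding proteins, proteases and receptors, 2 had a unit, Igf2 in a merged unit and Igf2r, and neither passed 0.05 across the states. The Igf2 unit had a log2 fold change of 0.19 (SE 0.21, edgeR adjusted p = 0.441) from IBA to the mean of ET and LT, and Igf2r, the clearance receptor of IGF2, one of -0.02 (SE 0.16, edgeR adjusted p = 0.931).

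Of 23 genes of growth hormone receptor signalling, 12 had a unit, 4 of them merged, and 4 passed 0.001 across the states in edgeR, where 25.5% of all units did. From IBA to the mean of ET and LT, 3 of the 12 rose and 2 fell, where 14.1% and 14.2% of all units did, and their median log2 fold change was -0.10, beside -0.04 over all units. Stat5b, which encodes the transcription factor downstream of the receptor, was at 140, 123 and 121 CPM in IBA, 36.1, 41.2 and 43.2 in ET, and 38.1 and 36.5 in LT. It fell by 1.72 on the log2 scale (SE 0.16, edgeR adjusted p = 4.1e-06), without overlap and in the same comparison as Ghr. The unit of Socs4, a member of the family of signalling inhibitors, merged with Mapk1ip1l, rose by 1.07 (SE 0.13, edgeR adjusted p = 2.4e-05). Ptpn11, the gene of the phosphatase SHP2, rose by 1.17 (SE 0.19, edgeR adjusted p = 1.7e-04), and the unit of the adaptor gene Sh2b1, merged with G40332 and Atxn2l, by 0.73 (SE 0.12, 1.7e-04). The calls of Sh2b1 and Ptpn11 across the states were lost in most fits without 1 library, with edgeR adjusted p up to 0.0035 and 0.0038, and the list then held as few as 2 calls.

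Of 35 genes of proximal insulin signalling, 25 had a unit, 8 of them merged, and 6 passed 0.001 across the states in edgeR, a share close to the 25.5% of all units. Between IBA and the cold states, 2 rose and 4 fell, where 14.1% and 14.2% of all units did, and their median was -0.15. Grb14, which encodes an inhibitor of the insulin receptor, was at 588, 466 and 514 CPM in IBA, 103, 167 and 150 in ET, and 150 and 134 in LT, and fell by 1.89 (SE 0.15, edgeR adjusted p = 1.5e-06). G6pc fell by 3.35 (SE 0.41, edgeR adjusted p = 2.4e-05) and Pck1 fell by 2.85 (SE 0.38, 4.9e-05) in the comparison in which Igfbp1 fell. From SA to the winter mean 3 of the 25 fell, where 6.83% of all units did. Foxo3, a forkhead factor gene, was at 1838, 1660 and 1540 CPM in SA and at 1037 or less in every winter library, and fell by 1.27 from SA to the winter mean (SE 0.16, edgeR adjusted p = 1.1e-04). Inppl1, the gene of the lipid phosphatase SHIP2, fell by 0.81 in that comparison (SE 0.13, edgeR adjusted p = 5.6e-04). Without LT 3 the list held 1 call across the states, without ET 3 it held 2, and without SA 3 or LT 1 it held 3.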

How the data were processed

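GRO-seq of liver nuclei was analysed in 14 libraries of 5 states. The authors trimmed the reads with cutadapt, aligned them with BWA to HiC_Itri_2, redefined gene bodies from the reads, removed the first 500 nt after each start, merged overlapping genes and counted reads with featureCounts (versions not given in the sources used here). The deposited values are raw counts per unit, and unit lengths come from the deposited table. Total counts ranged from 3713883 to 8884763.

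All 6324 units were fitted without a filter in edgeR 4.0.16 (R 4.3.3, TMM, quasi-likelihood, 1 term per state), with Benjamini-Hochberg adjustment over all units and a threshold of 0.001. Each edgeR adjusted p given is from this fit or from the named alternative. Log2 CPM for correlations used a prior count of 2. Python 3.11.15, pandas 2.3.3, numpy 2.4.6 and matplotlib 3.10.9 were used. The fit was repeated with DESeq2 1.42.0, limma-voom from limma 3.58.1, other scalings, a minimum of 10 counts, a replicate block, season as a covariate, the compared groups only and each library left out. Season was a covariate only from SA to IBA, IBA to Ent and LT to IBA. Seasons and mapped reads came from the study's animal and read tables. The fits were tested on simulated data.

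The members and gene lists were chosen with earlier results of these data known. All members were named, with the list units past 0.001 across the states (at most 8 a list by p) and, for each member with its own unit, the 2 single-gene units of highest r. A list unit that met this rule is not reported here. All 10 symbols are in the RefSeq gene table, which is of another assembly and gave no coordinate. Libraries of a state differed by more than counting error.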

Additional observations from a re-analysis of the deposited data

How the results depend on the processing

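Counts of members past 0.001 moved with the threshold, the tool and single libraries. Across the states 2 were called in the main fit, 4 at an adjusted p of 0.05, 1 with uniquely mapped reads as library size, and 0 to 2 with a library left out. From IBA to the mean of ET and LT the count of 2 became 6 at 0.05, 4 with the compared groups only, and 1 to 4 with a library left out. From LT to IBA the count of 1 became 4 at 0.05, 2 in DESeq2 and in limma-voom, 0 with uniquely mapped reads or with season as a covariate, and 0 to 2 with a library left out. The count of 0 became 1 in DESeq2 and 1 at 0.05 from IBA to Ent and from Ent to ET, and 2 in DESeq2 and 3 at 0.05 from SA to the winter mean. Scaling by uniquely mapped reads shifted the median of all units by 0.22 from IBA to the mean of ET and LT, -0.18 from LT to IBA, 0.15 from IBA to Ent and from SA to winter, and 0.12 from Ent to ET.

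Over all alternatives, a fold change took the opposite sign and moved by more than the SE of the reported value in 8 cases, for 4 genes. The sign also changed within that SE in 33 cases, for 7 genes, each in a comparison in which that gene was not called. For Igf1, SA to IBA gave a log2 fold change of 0.71 in limma-voom and of -0.69 to 1.87 with a library left out, SA to the winter mean -1.54 to 1.02 with a library left out, each positive without SA 2, and with season as a covariate 1.02 from IBA to Ent and -0.06 from LT to IBA. For Igfbp1 it was -0.65 to 0.64 from ET to LT with a library left out, positive without ET 3, for the Igfals unit 0.15 from LT to IBA with season as a covariate, and for the Irs1 unit -0.43 to 0.38 from SA to the winter mean with a library left out, positive without SA 2. The cause was not tested beyond the libraries named.

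Replicate numbers did not pair the animals. Over 26 pairs of libraries with the same number in different states, the correlation of deviations from the state means lay between -0.26 and 0.23 (median 0.03), and 6 were above 0.1. With the replicate block, 1 member was called across the states, Igfbp1, which also passed from LT to IBA in place of Ghr (1.32, edgeR adjusted p = 0.0013), and 2 units of growth hormone receptor signalling. Irs2 then missed 0.05 from IBA to the mean of ET and LT (0.72, edgeR adjusted p = 0.058) and from LT to IBA (-0.85, 0.072).

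The alternatives for the wider lists were chosen after seeing the data. Growth hormone receptor signalling had 4 calls in the main fit, 8 at 0.05, 7 in DESeq2, and 2 to 4 with a library left out. Proximal insulin signalling had 6 calls, 13 at 0.05, 11 in DESeq2, and 1 to 6 with a library left out.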

Other observations

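For each member with a unit of its own, the 2 single-gene units whose log2 CPM followed it most closely over the 14 libraries were looked up, as a description. Igfbp1 was followed by G6pc (Pearson's r of 0.98) and by the unnamed G16888 (0.96). Igfbp4 was followed by Il6r, the gene of the interleukin-6 receptor (0.92), and by Slc7a5, an amino acid transporter gene (0.90). For Insr they were Tbc1d22a (0.95) and Hgd, a gene of tyrosine breakdown (0.91). For Irs2 they were H2AFY, which encodes a macroH2A histone (0.90), and Pcid2 (0.88). Igf1 was followed less closely, by Ptpn2, the gene of a tyrosine phosphatase (0.87), and Atp6v0a1, a subunit gene of the vacuolar proton pump (0.86). These values share the states and the library sizes, and the units were chosen for their likeness.

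A pair of genes outside the naming rule was chosen after their values were seen. Foxo1 was at 446, 459 and 484 CPM in IBA, 998, 775 and 1205 in Ent, 1827, 1139 and 1666 in ET, and 1748 and 1370 in LT. It rose by 1.74 on the log2 scale from IBA to the mean of ET and LT (SE 0.31, edgeR adjusted p = 3.9e-04), without overlap, while Igfbp1 fell. Bcl6, which encodes a transcriptional repressor that STAT5 regulates in liver, was at 690, 496 and 267 CPM in IBA, 89.5, 89.6 and 149 in ET, and 106 and 123 in LT, and fell by 2.12 (SE 0.36, edgeR adjusted p = 3.2e-04). Across the 5 states neither passed 0.001, with edgeR adjusted p of 0.0018 and 0.0015.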
